A study of Mus musculus with 22 samples.

Results

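The comparison described here is the difference between adult offspring of dams fed a western diet (W dams) and adult offspring of dams fed a low-fat control diet (L dams), averaged with equal weight over the 2 diets that the offspring themselves ate. All 22 arrays of the series entered it, 11 from offspring of W dams and 11 from offspring of L dams. Each array measured total liver RNA of 1 male C57BL/6J mouse, an inbred strain, at 29 weeks of age. Group names give the dam's diet first and the offspring's diet second: WL (n = 5) and WW (n = 6) had W dams, and LL (n = 6) and LW (n = 5) had L dams. Dams entered their diet at 5 weeks of age and stayed on it for 6 weeks until mating, and through pregnancy and nursing. Sons were then fed W or L for 24 weeks. The submitters left out 1 experimental and 1 biological outlier, per the series text. The labels do not say which sons shared a litter, so p-values take every mouse as independent and measure only the spread between these mice. The series title names priming for liver inflammation by a maternal western diet as the study's subject.

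As background, a western diet is rich in fat and sugar and leads in adult mice to storage of triglyceride in hepatocytes. In a fatty liver, resident macrophages (Kupffer cells) and recruited leukocytes release chemokines, and stellate cells, which otherwise store vitamin A, can turn into contractile cells that lay down collagen. Fatty acids are oxidised in mitochondria and peroxisomes under the control of the nuclear receptor PPAR-alpha, and are made from acetyl-CoA by enzymes that the factor SREBP1 switches on.

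On these arrays between 13285 and 15105 of 45281 probes were detected, and mean intensity ran from 151.1 to 276.5 units per array. Offspring of W dams had 14487 ± 394 detected probes and offspring of L dams 14252 ± 462 (SD, n = 11 each). The hepatocyte transcripts Alb, Apoa1, Ttr and Serpina1c were detected on 22 of 22 arrays and Fgb on 7, whereas the skeletal muscle genes Acta1 and Ckm, the bile duct gene Krt19 and the fat cell gene Plin1 were detected on 0. Of 15 listed markers of the exocrine pancreas 3 were tested, and 1 of these was detected on all 22 arrays. The 3 stood highest in WL replicate 5, where their mean log2 value stood 1.37 above the mean of the 4 groups, against 0.24 or less on the other arrays. The arrays lay on 4 slides, and slide 1 and slide 2 each held 2 WW and 2 LW arrays, slide 3 held 2 WL and 2 LL arrays, and slide 4 held 1 WL and 3 LL arrays, beside arrays of other groups. Intensities differed between slides (median F over genes 2.04, with 0.826 expected without a difference), and values within slides and with slide as a block are given beside the main lists for that reason.

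No gene was called for dam diet. Of 9881 genes tested, 0 (0%) had an adjusted p under 0.05 in the limma fit to all arrays with Benjamini-Hochberg adjustment, and the smallest adjusted p was 0.816. Without adjustment 582 genes (5.89%) had p under 0.05, where 494 are expected by chance, 322 of them (3.26%) higher and 260 (2.63%) lower in offspring of W dams, and 9 genes (0.0911%) had p under 0.001. By sign alone 50.7% of genes were higher and 49.3% lower. For 0 genes did all 11 offspring of W dams lie above, or all 11 below, all 11 offspring of L dams. With slide as a block the counts were 0 called and 657 (6.65%) at an unadjusted p under 0.05.

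The precision of this null can be stated in log2 units, where 1 is a doubling of intensity. The log2 difference (W dams minus L dams) had a median absolute size of 0.084 over all genes and a 99th percentile of 0.46. Its standard error had a median of 0.11, so that the 95% confidence interval reached 0.23 to either side in the median gene. For 88.88% of genes the whole interval lay between -0.5 and 0.5, and for 99.2% it lay between -1 and 1, which leaves 79 genes whose interval reached beyond a doubling or halving. These intervals are per gene and are not adjusted for the number of genes. They take every mouse as independent, so they can be too narrow if sons shared litters. In the same fit and the same mice, the diet that the sons ate, averaged over dam diets, gave 268 called genes (2.71%). Among those 268 genes the median absolute difference was 0.081 for dam diet and 0.50 for offspring diet. They were selected for their offspring diet difference in these same mice, which enlarges the second median, so these medians do not compare the diets. Over all genes the 99th percentile of the absolute difference was 0.46 for dam diet and 0.74 for offspring diet. The dam diet average minus the offspring diet average, which equals WL minus LW, was called for 4 genes (0.0405%).

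**Figure D1:**
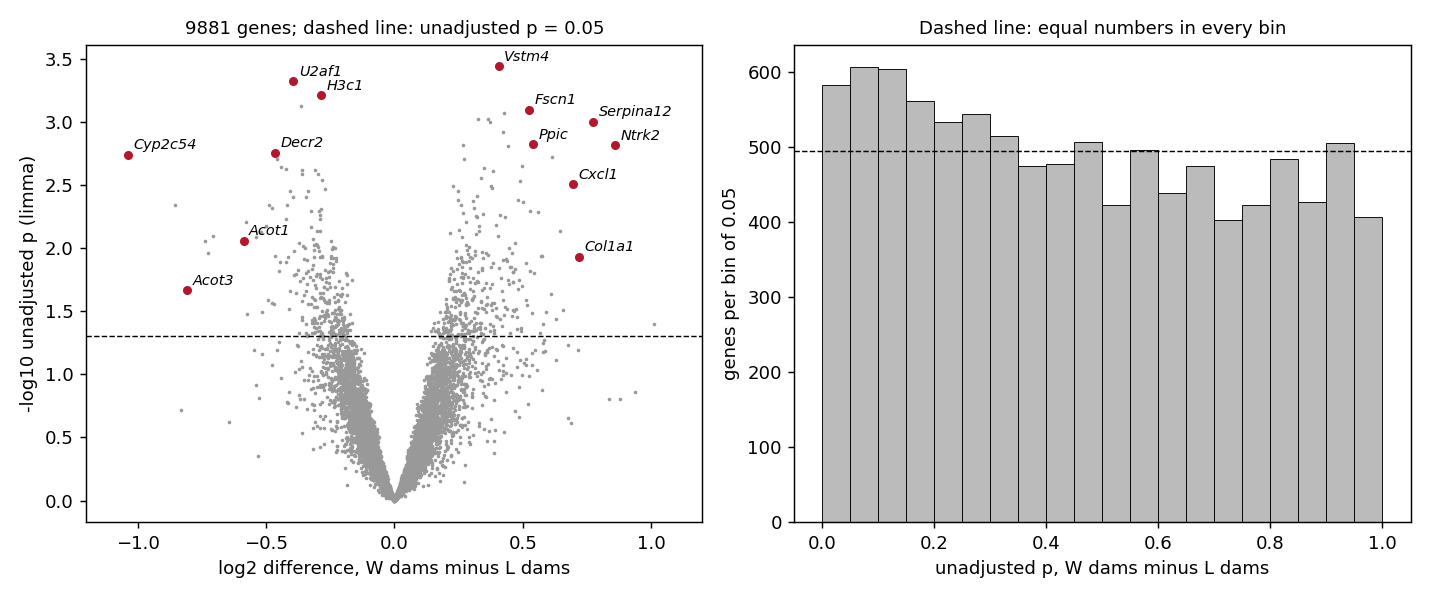
Left, each point is 1 of 9881 genes, with its log2 difference (W dams minus L dams, averaged over offspring diets) against -log10 of the unadjusted limma p; right, the number of genes in each p bin of width 0.05. Cyp2c54 lies farthest left at -1.04, Vstm4 is the highest point, and the first bin holds 582 genes against 494 at the dashed line.

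Because no gene passed, the genes below are those with the smallest p on each side, and their values are a description. The 24 genes with the smallest p and the list members named below each have an adjusted p of 0.816 in the limma fit unless another is given, and errors are standard errors of that fit. Sizes depend on the processing: on the log2 scale of the submitters' own normalized intensities, the differences of the 77 genes examined had the same signs but a median of 0.216 times the size given here, and 65 of 77 were over 1.5 times smaller. Intensities are on the log2 scale after normalization and show differences between mice for 1 probe, not levels between genes.

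Among genes higher in offspring of W dams the smallest p belonged to Vstm4, a membrane protein with an immunoglobulin-type domain. Vstm4 ranged from 5.73 through a median of 5.93 to 6.21 in the 11 offspring of W dams, and from 4.90 through 5.57 to 5.99 in the 11 offspring of L dams (difference 0.41 ± 0.098 SE, n = 11 each, unadjusted p = 0.000364). The ranges overlapped, and 3 offspring of W dams lay above the highest offspring of L dams. Fscn1, which encodes the actin-bundling protein fascin, ran from 5.29 through 5.65 to 6.40 in offspring of W dams and from 4.56 through 5.11 to 5.66 in offspring of L dams (0.52 ± 0.14, n = 11 each, unadjusted p = 0.000802). It was detected in 11 of 11 offspring of W dams and 8 of 11 of L dams, and its highest mouse was WW replicate 6. Serpina12, the gene of the adipokine vaspin, a serine protease inhibitor, was measured far above background, at 10.26, 11.61 and 12.13 (lowest, median and highest) in offspring of W dams and 9.81, 10.72 and 11.67 in offspring of L dams. Its difference was 0.77 ± 0.21 (1.71-fold, n = 11 each, unadjusted p = 0.000997), with 0.64 ± 0.29 for WL minus LL and 0.91 ± 0.29 for WW minus LW, and 5 offspring of W dams lay above every offspring of L dams. A second Serpina12 probe gave 0.54 ± 0.15.

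Ntrk2, the receptor of brain-derived neurotrophic factor, had the largest difference among the 12 higher genes with the smallest p. Its values were 5.83, 6.60 and 8.28 in offspring of W dams, against 4.55, 5.58 and 7.22 in offspring of L dams (0.86 ± 0.24, 1.82-fold, n = 11 each, unadjusted p = 0.00154). The difference was close in both offspring diets, 0.92 ± 0.34 for WL minus LL and 0.80 ± 0.34 for WW minus LW, and within slides 1, 2, 3 and 4 it was 0.49, 0.52, 0.63 and 0.74. Ppic, a cyclophilin, ran from 7.78 through 8.20 to 9.11 in offspring of W dams and from 7.33 through 7.69 to 8.58 in offspring of L dams (0.54 ± 0.15), and a second Ppic probe gave 0.18 ± 0.12. Ndn, a paternally expressed imprinted gene, stood at 5.16, 5.53 and 6.04 in offspring of W dams against 4.84, 5.12 and 5.49 in offspring of L dams (0.42 ± 0.12, n = 11 each, unadjusted p = 0.00121). For Ndn 7 of 11 offspring of W dams exceeded every offspring of L dams, as they did for Carhsp1, a protein that binds nucleic acids (9.68, 9.96 and 10.12 against 9.43, 9.62 and 9.94, difference 0.27 ± 0.075), and for Gosr1, a Golgi SNARE protein (0.44 ± 0.12). The other 4 of these 12 genes were Ifi47, Wdr93, Zfp868 and Fam171b, with differences of 0.43, 0.36, 0.32 and 0.37. Zfp868, a zinc finger gene, was detected in 11 of 11 offspring of W dams and 5 of 11 offspring of L dams, and Ifi47, an interferon-induced GTPase, in 11 of 11 and 6 of 11.

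On the lower side the smallest p was that of U2af1, the small subunit of the factor that recognises the 3′ splice site. U2af1 ran from 6.41 through 7.02 to 7.48 in offspring of W dams and from 7.21 through 7.35 to 7.81 in offspring of L dams (-0.39 ± 0.098, n = 11 each, unadjusted p = 0.000477). Here 10 of 11 offspring of W dams lay below the lowest offspring of L dams, and WL replicate 5, at 7.48, was the exception. The difference was -0.38 ± 0.14 for WL minus LL and -0.40 ± 0.14 for WW minus LW, and within slides 1 to 3 it was -0.31, -0.37 and -0.48. On slide 4, where WL replicate 5 is the only WL array, it was 0.14.

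A pair of peroxisomal enzymes lay lower in offspring of W dams in each offspring diet. Decr2, a reductase for unsaturated fatty acids, had 9.06, 9.39 and 9.98 in offspring of W dams against 9.22, 9.85 and 10.44 in offspring of L dams (-0.46 ± 0.13, n = 11 each, unadjusted p = 0.00176), with -0.55 ± 0.19 for WL minus LL and -0.38 ± 0.19 for WW minus LW. Its second probe gave -0.41 ± 0.14. Hacl1, the lyase of alpha-oxidation that shortens branched fatty acids, had 5.33, 6.14 and 6.84 in offspring of W dams against 5.83, 6.62 and 7.34 in offspring of L dams (-0.46 ± 0.13, n = 11 each, unadjusted p = 0.00199), with -0.48 ± 0.19 for WL minus LL and -0.44 ± 0.19 for WW minus LW. In 4 of 11 offspring of W dams each of these enzymes lay below every offspring of L dams. Hacl1 was also among the genes called for the sons' own diet, where it was lower in W-fed sons by -0.70 (limma adjusted p = 0.00552).

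Cyp2c54, a cytochrome P450 of the mouse Cyp2c cluster, had the largest absolute difference of all genes and its values differed between offspring diets (interaction not called). It ran from 4.69 through 7.002 to 8.44 in offspring of W dams and from 6.99 through 8.10 to 8.88 in offspring of L dams (-1.04 ± 0.30, 2.05-fold, n = 11 each, unadjusted p = 0.00183). The difference was 0.0087 ± 0.42 for WL minus LL and -2.08 ± 0.42 for WW minus LW. Within slides 1 and 2 WW minus LW was -2.46 and -1.995, and within slides 3 and 4 WL minus LL was 0.92 and 0.19. Probes of this cluster can share signal between near-identical genes.

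The other 8 of the 12 lower genes with the smallest p follow. H3c1, a replication-dependent histone H3 gene whose copies are near-identical in sequence, was detected in 0 of 11 offspring of W dams and 7 of 11 offspring of L dams, with measured means of 4.64 and 4.91. With offspring of W dams raised to the lowest signal that counted as detected on each array, it was 1.04-fold lower. Paqr3, a Golgi membrane protein detected in 0 of 11 and 5 of 11, was 1.02-fold lower by the same measure. Both values take the mean over all 11 offspring of L dams, arrays without detection included, so they are not minimum differences. H3c1 and Paqr3 met the filter, detection on at least 5 arrays, only through offspring of L dams, so these detection counts do not support a difference. Exosc6, a subunit of the RNA exosome, had a difference of -0.36 ± 0.094, and Rbm25, a splicing regulator, of -0.42 ± 0.12. Kdm6b, a histone demethylase, had -0.44 ± 0.13, but its 2 other probes gave -0.033 ± 0.093 and 0.13 ± 0.12. The other probes of Rap2a, a small GTPase (-0.36 ± 0.11), and Borcs6, a lysosomal positioning factor (-0.30 ± 0.089), gave 0.020 ± 0.10 and -0.023 ± 0.094. Gnb5, a G protein beta subunit (-0.36 ± 0.11), was detected in 1 of 11 offspring of W dams and 6 of 11 offspring of L dams, so its level in offspring of W dams was mostly not above background. Gnb5 too met the filter only through offspring of L dams.

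**Figure D2:**
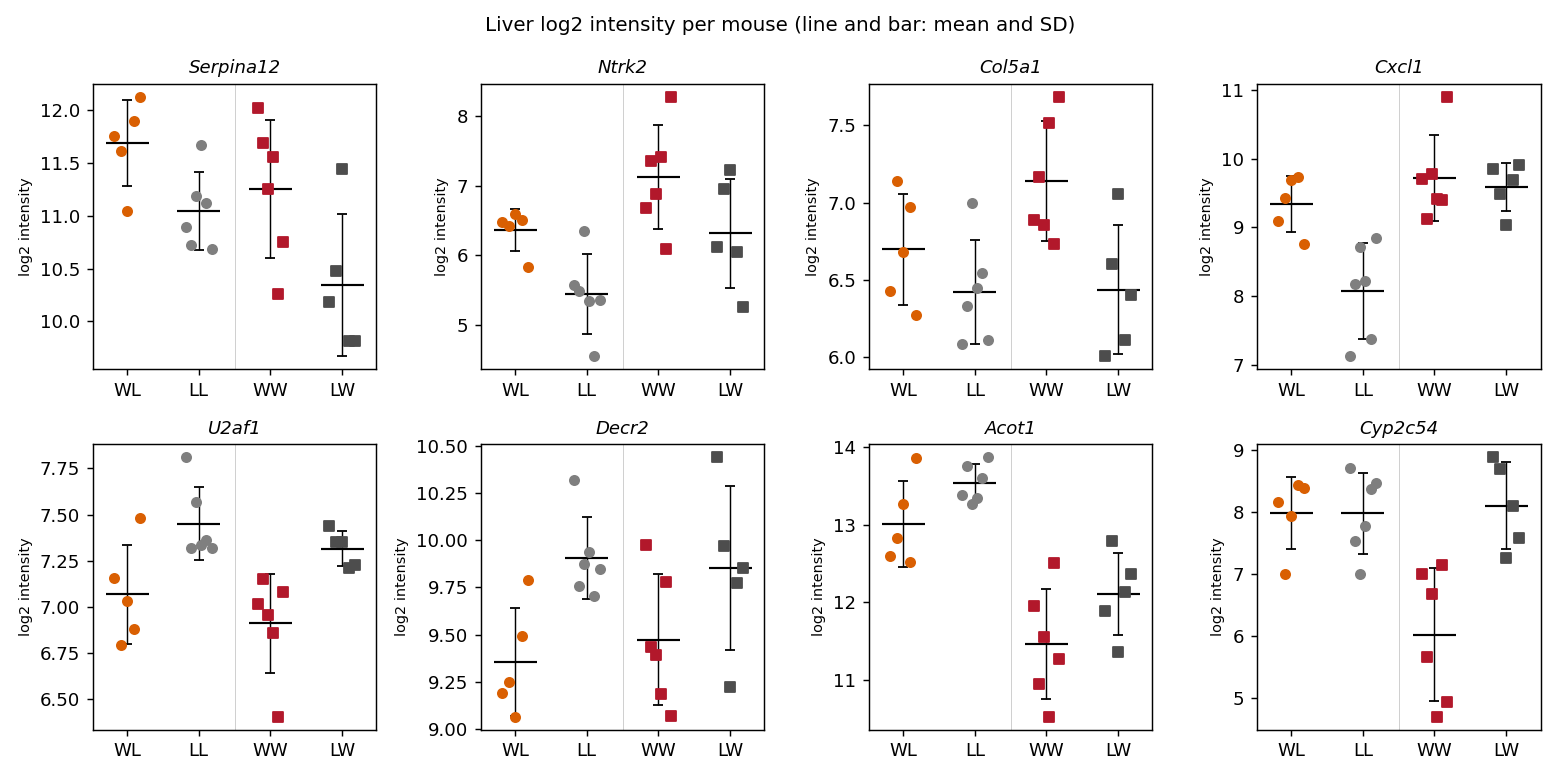
Log2 intensity of 8 genes in every mouse, with groups WL, LL, WW and LW from left to right and the mean and SD of each group. Groups overlap in every panel once the sons' diets are pooled; U2af1 comes closest to separation, with 10 of 11 offspring of W dams below all offspring of L dams, and for Cyp2c54 WW minus LW is -2.08 while WL minus LL is 0.0087.

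The average joins WL minus LL and WW minus LW, which share no mice, so each is a repeat of the dam diet comparison in the other offspring diet. WL minus LL had 0 called genes and 468 (4.74%) at an unadjusted p under 0.05, and WW minus LW had 0 called and 989 (10%). Across genes both differences correlated with r = -0.061 (Pearson) and -0.040 (Spearman), and 48.2% of genes had the same sign. By sign 51.9% of genes were higher in WL minus LL and 48.3% in WW minus LW. Genes are not independent replicates, and the number is given as a description. The interaction, which tests whether the dam diet difference differs between offspring diets, was called for 0 genes (0%), with a smallest adjusted p of 0.266, that of Dip2c, and 790 genes (8%) at an unadjusted p under 0.05. Dip2c had 0.65 ± 0.12 for WL minus LL and -0.21 ± 0.12 for WW minus LW. Arrdc3, an arrestin-domain protein, had 1.33 ± 0.26 and -0.21 ± 0.26, and Pigt, a subunit of the enzyme that attaches lipid anchors to proteins, had 0.22 ± 0.24 and -1.15 ± 0.24. The averages of these 3 genes were 0.22, 0.56 and -0.46, and each had opposite signs in both offspring diets. A second Pigt probe had an average of -0.16 ± 0.23.

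**Figure D3:**
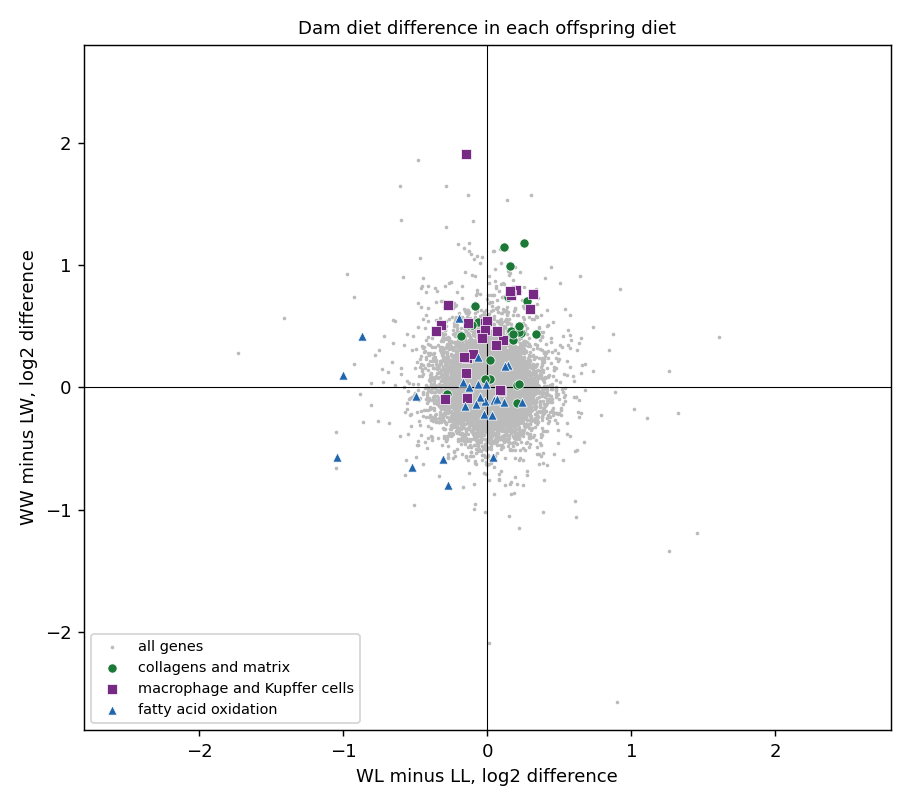
Each point is a gene, with WL minus LL on the horizontal and WW minus LW on the vertical axis (log2 difference); 3 gene lists are coloured. The cloud is round (r = -0.061), collagen and matrix genes lie mostly above 0 on the vertical axis (25 of 27) and 19 of 27 lie right of 0, and macrophage genes lie above 0 in 22 of 26 cases and right of 0 in 11.

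Gene lists were then described by the number of members on each side and by their median, beside the whole array, where 50.7% of genes were higher and the median difference was 0.0022. Of 48 lists with a tested gene, 8 had a median over 0.1, 2 had one below -0.1, and 38 lay between. No list had a called member. In liver tissue, fewer cells of a type and less RNA per cell cannot be told apart.

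Collagens and other matrix genes were the list with the most one-sided count among those with over 20 tested genes. Of 27 tested members 26 were higher in offspring of W dams, with a median of 0.29, and 11 had an unadjusted p under 0.05, all higher (3.26% of all genes were so). Col5a1, a fibril-forming collagen, had 6.27, 6.89 and 7.69 in offspring of W dams against 6.01, 6.40 and 7.06 in offspring of L dams (0.49 ± 0.15, n = 11 each, unadjusted p = 0.00295). The ranges overlapped, and 4 offspring of W dams lay above all offspring of L dams. Col6a3, of the beaded filament collagen VI, had 6.01, 6.69 and 8.12 against 5.32, 6.31 and 7.28 in the same order of groups (0.57 ± 0.21), and Col15a1, a basement membrane collagen detected in 7 of 11 offspring of W dams and 1 of 11 of L dams, differed by 0.34 ± 0.10. Col15a1 met the detection filter only through offspring of W dams, so its detection counts do not support a difference. Col1a1, the main fibrillar collagen of scar tissue, had 4.51, 5.68 and 7.30 in offspring of W dams against 4.28, 4.75 and 6.13 in offspring of L dams (0.72 ± 0.26, n = 11 each, unadjusted p = 0.0117) and was detected in 9 of 11 and 5 of 11. Timp1, an inhibitor of matrix proteases, had 0.63 ± 0.28, and its second probe 0.61 ± 0.30.

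Both offspring diets are given next. The matrix median was 0.16 for WL minus LL, with 19 of 27 members higher, and 0.44 for WW minus LW, with 25 of 27 higher. Col1a1 had 0.26 ± 0.37 and 1.18 ± 0.37, and Timp1 0.12 ± 0.40 and 1.15 ± 0.40. The interaction had an unadjusted p under 0.05 for 2 of the 27 members, where 8% of all genes had one, and 0 were called. Within slides the median was 0.64 and 0.23 for WW minus LW on slides 1 and 2, and 0.0043 and -0.056 for WL minus LL on slides 3 and 4. With slide as a block it was 0.23. The list score, the mean over members of the log2 difference from the mean of the 4 groups, ran from -0.45 through 0.11 to 0.86 in offspring of W dams and from -0.46 through -0.17 to 0.46 in offspring of L dams, and the highest of the 22 arrays was WW replicate 6. Without that mouse the median was 0.23, and 25 of 27 members were higher.

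Stellate cell genes lay the same way. Of 15 tested members 14 were higher in offspring of W dams (median 0.15, 0.11 for WL minus LL, 0.21 for WW minus LW, 0.16 with slide as a block). Within slides 1 and 2 the stellate median was 0.50 and 0.13 for WW minus LW, and within slides 3 and 4 it was -0.029 and -0.012 for WL minus LL. Acta2, the smooth muscle actin of activated stellate cells and of vessel walls, had 6.03, 6.67 and 8.19 in offspring of W dams against 4.69, 6.32 and 6.71 in offspring of L dams (0.71 ± 0.26, n = 11 each, unadjusted p = 0.0121). The 2 lowest mice were LL replicate 1 (4.89) and LW replicate 1 (4.69), and the 3 other Acta2 probes gave 0.24, 0.19 and -0.076. The lectin Colec11 had 0.32 ± 0.15. Endothelial genes were split, 10 of 21 higher with a median of -0.0063, and among them Stab1, a scavenger receptor of sinusoidal endothelium and macrophages, was lower (-0.32 ± 0.11, n = 11 each, unadjusted p = 0.00849) with a second probe at -0.19 ± 0.16.

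Macrophage and Kupffer cell genes were higher in 23 of 26 cases, with a median of 0.20 and 5 members at an unadjusted p under 0.05. Tyrobp, an adaptor of myeloid receptors, had 7.18, 7.49 and 8.70 in offspring of W dams against 6.49, 6.98 and 7.77 in offspring of L dams (0.47 ± 0.17, n = 11 each, unadjusted p = 0.00908), and 2 offspring of W dams lay above the highest offspring of L dams. C1qa, a complement subunit made by macrophages, had 7.95, 8.46 and 8.77 against 7.68, 8.22 and 8.45 in offspring of L dams (0.26 ± 0.10), and 6 offspring of W dams exceeded all offspring of L dams. Adgre1, a macrophage surface receptor, had 0.26 ± 0.11, and its 2 other probes gave 0.074 ± 0.11 and 0.029 ± 0.11. Ms4a7, detected in 11 of 11 and 7 of 11 mice, had 0.46 ± 0.17, and the lysosomal marker Cd68 had 0.27 ± 0.17 (adjusted p = 0.822 in limma).

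In the separate offspring diets the macrophage median was -0.029 for WL minus LL, with 11 of 26 higher, and 0.46 for WW minus LW, with 22 of 26 higher, and 6 of 26 members had an unadjusted interaction p under 0.05 (8% of all genes), with 0 called. Adgre1 had -0.020 ± 0.15 and 0.53 ± 0.15. Within slides 1 and 2 the median of WW minus LW was 0.43 and 0.24, within slides 3 and 4 that of WL minus LL was -0.16 and -0.25, and with slide as a block the average was 0.19. WW replicate 6 had the highest list score of all arrays (0.95, the next WW mouse 0.34), and this array also had the highest mean intensity, 276.5, and the most detected probes, 15105. The part of these array properties in the result was not tested. Without WW replicate 6 the macrophage median was 0.12, and 21 of 26 members were higher.

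Other immune lists lay on the same side. All 10 tested genes of MHC class II presentation, by which macrophages, dendritic cells and B cells show peptides to T cells, were higher (median 0.24), although 0 of them reached an unadjusted p under 0.05. H2-Aa, the alpha chain of an MHC class II dimer, had 4.92, 5.40 and 6.72 in offspring of W dams against 4.54, 5.03 and 5.95 in offspring of L dams (0.35 ± 0.18), and both H2-DMa (0.30 ± 0.16), which loads peptide, and H2-Oa (0.16 ± 0.079) lay within overlapping ranges. Without WW replicate 6 the H2-Aa difference was 0.23. The class II median was -0.016 for WL minus LL and 0.41 for WW minus LW, 0.46, 0.51, 0.14 and -0.061 within slides 1 to 4, and 0.21 with slide as a block. B and plasma cell genes were higher in 8 of 8 cases (median 0.37, 0.19 for WL minus LL, 0.34 for WW minus LW, 0.36 with slide as a block), and 4 had an unadjusted p under 0.05. Within slides 1 to 4 the B and plasma cell median was 0.56, 0.22, 0.16 and 0.34. Iglv1, an immunoglobulin light chain segment, had 5.51, 6.25 and 6.90 in offspring of W dams against 5.03, 5.52 and 6.24 in offspring of L dams (0.50 ± 0.16, n = 11 each, unadjusted p = 0.00435), with 0.57 ± 0.23 and 0.43 ± 0.23 in the L-fed and W-fed sons, and 6 offspring of W dams exceeded all offspring of L dams. Ighm, the heavy chain of IgM, had 0.52 ± 0.22 (second probe 0.50 ± 0.22), and Ms4a1, which encodes CD20, had 0.28 ± 0.099 and was detected in 7 of 11 and 3 of 11 mice. Ms4a1 met the filter only through offspring of W dams, so its detection counts do not support a difference. Of 17 genes listed for this cell type 8 passed the detection filter. With no detection filter 10 of 15 tested B and plasma cell genes were higher (median 0.087), so the one-sided count depends on the filter. Genes of T and NK cells were higher in 6 of 10 cases (median 0.039).

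**Figure D4:**
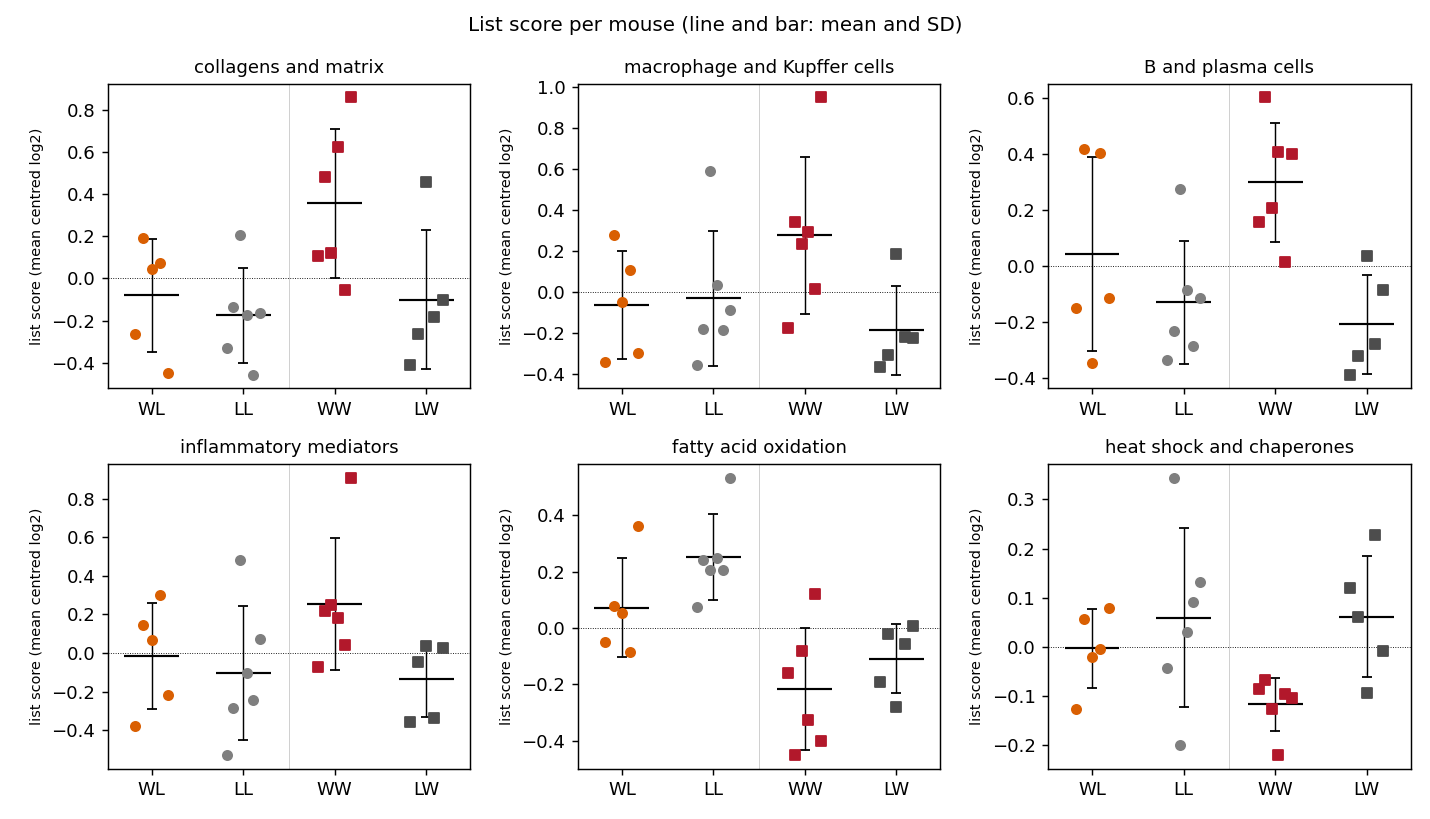
List score of every mouse (mean over the tested members of the log2 difference from the mean of the 4 groups) for 6 lists, with WL, LL, WW and LW from left to right and the mean and SD of each group. WW replicate 6 is the top point of the matrix (0.86), macrophage (0.95) and inflammatory (0.91) panels, and offspring of L dams overlap offspring of W dams in all 6.

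Inflammatory mediators were higher in 21 of 24 cases, with a median of 0.22 and 4 members at an unadjusted p under 0.05. With no detection filter 25 of 34 were higher (median 0.11). Cxcl1, a chemokine that attracts neutrophils, had 8.76, 9.42 and 10.90 in offspring of W dams against 7.13, 8.84 and 9.90 in offspring of L dams (0.69 ± 0.21, 1.62-fold, n = 11 each, unadjusted p = 0.00314). The Cxcl1 difference was 1.26 ± 0.30 in L-fed sons (WL minus LL) and 0.13 ± 0.30 in W-fed sons (WW minus LW), and the interaction was not called. It was also called for the sons' own diet (0.95, limma adjusted p = 0.0182). Vcam1, an adhesion molecule for leukocytes, had 7.41, 8.27 and 9.49 against 6.95, 7.84 and 8.53 in offspring of L dams (0.57 ± 0.21), and Casp1, the protease that activates interleukin 1, had 0.27 ± 0.10, with -0.025 ± 0.15 for WL minus LL and 0.56 ± 0.15 for WW minus LW. The list median was 0.044 for WL minus LL and 0.39 for WW minus LW, and 0.24 with slide as a block, and within slides 1 to 4 it was 0.26, 0.30, 0.039 and -0.18. WW replicate 6 had the highest score, 0.91, with the next WW mouse at 0.25, and without that mouse the median was 0.14 with 19 of 24 higher.

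Genes of acute phase, complement and coagulation proteins, most of them secreted by the hepatocyte, showed smaller medians. The complement list also holds C1qa, named above as made by macrophages. Acute phase genes were higher in 18 of 23 cases with a median of 0.075 and 0 at an unadjusted p under 0.05, and complement and coagulation genes in 20 of 28 with a median of 0.062. C9, of the membrane attack complex, had 12.59, 13.01 and 13.22 in offspring of W dams against 12.19, 12.70 and 13.00 in offspring of L dams (0.31 ± 0.11, n = 11 each, unadjusted p = 0.0113), with 0.28 ± 0.16 and 0.34 ± 0.16 for WL minus LL and WW minus LW and 0.44 ± 0.16 for a second probe. For C9 6 of 11 offspring of W dams exceeded all offspring of L dams. C8a, of the same complex, had 0.47 ± 0.21 and was lower in W-fed sons in the average for offspring diet (-0.95, limma adjusted p = 0.0149).

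Interferon-induced genes were higher in 18 of 22 cases (median 0.15), 5 of them at an unadjusted p under 0.05, and this list was close in both offspring diets, 0.11 for WL minus LL and 0.19 for WW minus LW. Within slides 1 to 4 its median was 0.14, 0.066, 0.22 and -0.033. Ifi47 had 4.95, 5.32 and 5.81 in offspring of W dams against 4.52, 4.97 and 5.39 in offspring of L dams (0.43 ± 0.11, n = 11 each, unadjusted p = 0.000858), and 5 offspring of W dams lay above every offspring of L dams. Ifit2, an RNA-binding antiviral protein, had 0.51 ± 0.19 with a second probe at 0.17 ± 0.10, and Oasl2 had 0.26 ± 0.11 with a second probe at 0.21 ± 0.12. Without WW replicate 6 the median was 0.097, and 16 of 22 were higher.

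Interferon-induced genes are known for a response element with the letters GAAANNGAAA, which was searched on both strands (TTTCNNTTTC on the other) in RefSeq promoter windows of GRCm38.p6 from 250 bases before to 50 bases after each annotated start. Of the 22 tested list members 16 had a window, and 9 of these (56.2%) held a match, against 294 of 7886 tested genes with a window (3.73%) and 3.44% of all 32851 windows. Of the 9, 7 were higher in offspring of W dams by sign. Ifi47, Ifit2 and Oasl2 were among the 16 with a window and had 0 matches, which says only that these letters are not in these windows. Shown are windows of a member with 2 matches, Ifit3 (chr19:34583279-34583578, plus strand, difference 0.28), and of one with 1 match, Gbp2 (chr3:142620413-142620712, plus strand, difference 0.34), both picked after their values were seen, with the matches in capitals.
Ifit3: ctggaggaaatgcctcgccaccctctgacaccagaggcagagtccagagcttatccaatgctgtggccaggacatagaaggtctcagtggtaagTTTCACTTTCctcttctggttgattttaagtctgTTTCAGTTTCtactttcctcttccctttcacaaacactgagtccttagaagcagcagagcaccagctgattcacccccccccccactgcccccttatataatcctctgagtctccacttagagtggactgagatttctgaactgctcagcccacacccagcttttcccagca
Gbp2: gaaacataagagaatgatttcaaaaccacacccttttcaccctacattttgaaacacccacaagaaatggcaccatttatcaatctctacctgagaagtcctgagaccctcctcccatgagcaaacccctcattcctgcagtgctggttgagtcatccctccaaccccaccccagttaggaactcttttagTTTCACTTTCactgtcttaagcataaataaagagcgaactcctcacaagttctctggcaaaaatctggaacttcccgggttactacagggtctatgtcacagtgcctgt
The matches begin at positions -156 and -122 of Ifit3 and at position -59 of Gbp2 relative to the annotated start, and all 3 read GAAANNGAAA on the minus strand. A match is a description of the letters and does not show binding.

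Genes of fatty acid oxidation were lower in 20 of 26 cases in offspring of W dams, with a median of -0.064, and 5 had an unadjusted p under 0.05, all lower (2.63% of all genes were so). The members with the largest differences were not enzymes of the mitochondrial spiral. Acot1, a cytosolic acyl-CoA thioesterase, had 10.52, 12.50 and 13.86 in offspring of W dams against 11.36, 13.27 and 13.87 in offspring of L dams (-0.59 ± 0.21, n = 11 each, unadjusted p = 0.00875), and a second probe gave -0.77 ± 0.27. Acot3, a peroxisomal thioesterase, had -0.81 ± 0.33, with -1.04 ± 0.46 for WL minus LL and -0.57 ± 0.46 for WW minus LW. The fatty acid hydroxylases Cyp4a31 and Cyp4a14, targets of PPAR-alpha, had -0.54 ± 0.19 and -0.44 ± 0.17. Acot1, Cyp4a31 and Cyp4a14 were among the genes called for the sons' own diet, with -1.50, -1.06 and -1.01 and limma adjusted p of 0.000259, 0.00265 and 0.00161. Ranges of offspring of W dams and L dams overlapped for each of these genes.

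Both offspring diets gave the list a negative median, -0.064 for WL minus LL and -0.10 for WW minus LW. Within slides 1 to 4 it was -0.11, 0.014, -0.17 and 0.10, so the sign was not the same on every slide. When arrays were scaled to one median in place of quantile normalization, the median of all genes was 0.061, 69.6% of them were higher, and 13 of 26 members were higher with a list median of 0.0013. The list median thus changed sign with a shift shared by all genes, and lay below the median of all genes by 0.066 in the reported fit and by 0.060 under that scaling. With slide as a block it was -0.090.

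On the synthesis side 10 of 16 tested genes were higher, with a median of 0.073, and at an unadjusted p under 0.05 there were 2 higher and 1 lower. Srebf1, the gene of the factor SREBP1, had 6.34, 7.26 and 8.07 in offspring of W dams against 5.65, 6.50 and 7.88 in offspring of L dams (0.53 ± 0.17, 1.44-fold, n = 11 each, unadjusted p = 0.0051), with 0.65 ± 0.24 for WL minus LL and 0.40 ± 0.24 for WW minus LW. It was called for the sons' own diet (1.00, limma adjusted p = 0.00207). Acly, which makes cytosolic acetyl-CoA, had 0.20 ± 0.096, and Gpam, which starts glycerolipid assembly, -0.24 ± 0.11. The fatty acid synthase gene Fasn had 0.18 ± 0.098 and was detected in 8 of 11 and 3 of 11 mice, the desaturase gene Scd1 had 0.39 ± 0.27 (limma adjusted p = 0.825), and the lipid storage factor Pparg had 0.39 ± 0.24 (limma adjusted p = 0.822). Without LL replicate 1 these became 0.21 for Scd1 and 0.24 for Pparg. Fasn met the detection filter only through offspring of W dams, so its detection counts do not support a difference. Of 19 tested genes of cholesterol synthesis and uptake 6 were higher, with a median of -0.095 and 0 at an unadjusted p under 0.05.

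Genes of lipoprotein assembly were higher in 5 of 15 cases (median -0.060), and 3 were lower at an unadjusted p under 0.05. Apob, the structural protein of secreted lipoproteins, had 10.79, 11.87 and 12.67 in offspring of W dams against 11.75, 12.29 and 12.77 in offspring of L dams (-0.34 ± 0.14, n = 11 each, unadjusted p = 0.0277). Its difference was 0.19 ± 0.20 for WL minus LL and -0.86 ± 0.20 for WW minus LW, with the interaction not called, and 4 offspring of W dams lay below every offspring of L dams. Lcat, which esterifies cholesterol in plasma, had -0.31 ± 0.14 (second probe -0.27 ± 0.13), and Tm6sf2, a factor of lipoprotein lipidation, had -0.31 ± 0.15.

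Among genes of drug metabolism, targets of the nuclear receptors CAR and PXR were lower in 11 of 15 cases (median -0.11, -0.13 for WL minus LL, -0.092 for WW minus LW, -0.15 with slide as a block, and -0.20, -0.040, -0.033 and -0.24 within slides 1 to 4). With no detection filter 8 of 19 were higher (median -0.083), so the one-sided count depends on the filter. Cyp2c29 had 5.06, 5.84 and 6.36 in offspring of W dams against 5.47, 6.09 and 6.56 in offspring of L dams (-0.42 ± 0.16, n = 11 each, unadjusted p = 0.0128), with -0.46 ± 0.22 and -0.39 ± 0.22 in L-fed and W-fed sons. Cyp2c50 had -0.015 ± 0.32 for WL minus LL and -1.01 ± 0.32 for WW minus LW, and Nr1i3, the gene of CAR itself, had -0.011 ± 0.23 and -0.70 ± 0.23. The average was -0.36 ± 0.16 for Nr1i3, and its 2 other probes gave -0.37 ± 0.19 and -0.33 ± 0.15. Heat shock and chaperone genes were lower in 12 of 15 cases (median -0.12, -0.092 for WL minus LL, -0.16 for WW minus LW, -0.095 with slide as a block, and -0.14, -0.23, -0.091 and 0.041 within slides 1 to 4). Hsph1, a nucleotide exchange factor for Hsp70, had 6.28, 7.03 and 7.42 in offspring of W dams against 6.08, 7.55 and 8.59 in offspring of L dams (-0.49 ± 0.21, n = 11 each, unadjusted p = 0.0258), and the co-chaperones Dnajb4 and Dnajb1 had -0.32 ± 0.12 and -0.23 ± 0.10. Offspring of W dams spanned the narrower range for Hsph1, within that of offspring of L dams.

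Genes that differ between the sexes in mouse liver had medians between -0.1 and 0.1 in the average. Male-biased genes were higher in 12 of 23 cases with a median of 0.022, made of 0.20 for WL minus LL (20 of 23 higher) and -0.11 for WW minus LW (7 of 23 higher). Mup5, a major urinary protein, had 0.65 ± 0.22 (n = 11 each, unadjusted p = 0.00732) with a second probe at -0.040 ± 0.22, and members of this family share sequence. Of 7 female-biased genes 2 were higher (median -0.093, -0.50 for WL minus LL, -0.0046 for WW minus LW). At an unadjusted limma p under 0.05 there were 1 higher, Ntrk2 (0.86), and 2 lower, Acot3 (-0.81) and Nipal1. Nipal1 had -0.47 ± 0.20 with detection in 3 of 11 and 8 of 11 mice, and met the filter only through offspring of L dams. Scaling to one median gave 17 of 23 male-biased genes higher, where 69.6% of all genes were higher. Circadian genes had medians of 0.28 for WL minus LL and -0.14 for WW minus LW, and 0.024 in the average, and Nr1d2, a repressor of the clock, had 0.30 ± 0.13 with detection in 10 of 11 and 3 of 11. Nr1d2 met the filter only through offspring of W dams. Insulin and growth factor signalling genes had medians of 0.0996 and -0.16 in the same order, and Igfals among them, which carries insulin-like growth factor in plasma, had 0.079 ± 0.19 for WL minus LL and -0.70 ± 0.19 for WW minus LW.

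Housekeeping complexes lay close to 0. Oxidative phosphorylation subunits were higher in 21 of 42 cases (median 0.0037), mitochondrial ribosome proteins in 20 of 43 (-0.018), proteasome subunits in 10 of 25 (-0.014), and cytosolic ribosomal proteins in 34 of 51 (0.044). Hepatocyte identity genes were higher in 11 of 17 cases (median 0.030). Enzymes of chromatin and DNA methylation had a median of -0.038 with 6 of 16 higher, one-carbon and methyl donor enzymes -0.032 with 7 of 16 higher, and imprinted genes 0.018 with 8 of 12 higher, where Ndn had the smallest p. Of 26 genes on a fixed list for naming, chosen with earlier results of these data known, 20 were tested, and 0 were called. The 12 of them not described above, Igf2, H19, Dnmt1, Ppara, Ppargc1a, Hsd11b1, Il1b, Fgf21, Cyp7a1, Pck1, Insr and Alb, had differences between -0.20 and 0.058, each with an unadjusted p of at least 0.109 and a limma adjusted p of at least 0.816. They include the imprinted growth factor Igf2, the maintenance DNA methyltransferase Dnmt1, the PPAR-alpha gene Ppara and the rate-limiting bile acid enzyme Cyp7a1. Dnmt3a, Nr3c1, Cpt1a, Cd36, Tnf and Ccl2 did not meet the detection filter.

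**Figure D5:**
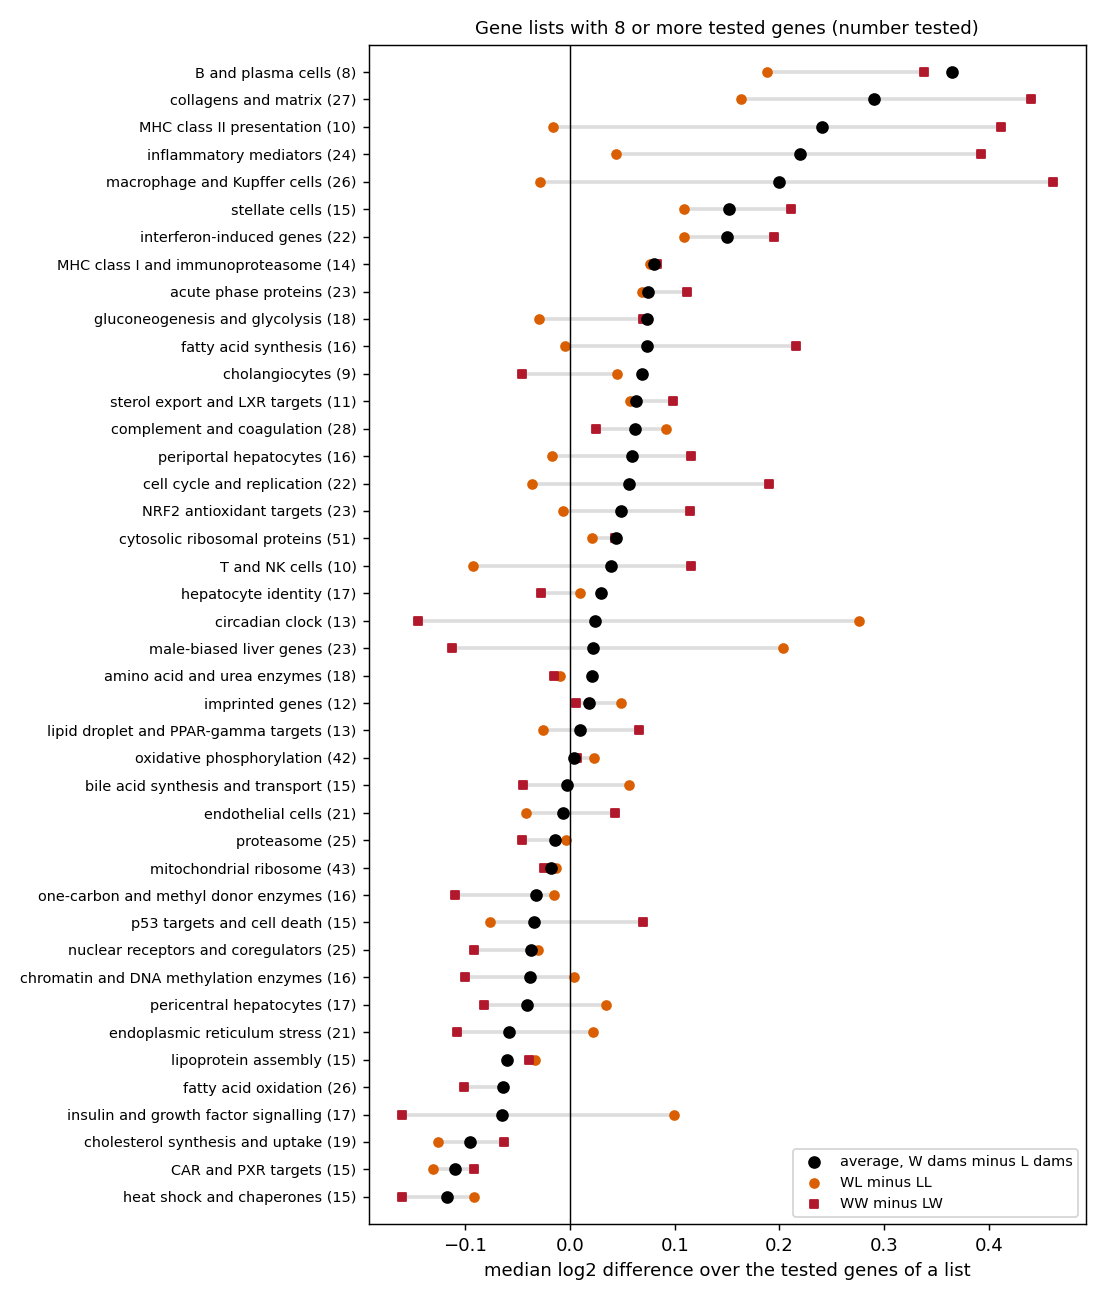
Median log2 difference over the tested members of each list with 8 or more tested genes, for the average (W dams minus L dams, black), WL minus LL (orange circles) and WW minus LW (red squares). Black points run from -0.12 (heat shock) to 0.37 (B and plasma cells), and for macrophage, MHC class II and inflammatory lists the red squares lie at 0.39 to 0.46 while the orange circles lie between -0.029 and 0.044.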

How the data were processed

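The deposited table holds 2 columns per array, an intensity without between-array normalization and a detection p-value, for 45281 probes, per the file headers. A background had been subtracted, since 33.2% to 41.2% of values per array lay below 0. The submitters' further deposited intensity table, on a linear scale with near-equal medians per array (how it was made is not given in the sources used here), served as an alternative, and each of its 22 columns matched its own array best. The function neqc (limma 3.58.1, R 4.3.3) corrected the background, with offset 16 and the control level inferred from the detection p, then applied quantile normalization and log2. Probes with detection p under 0.05 on at least 5 arrays were kept (16268). Through a RefSeq gene table (GRCm38.p6, used for names) a symbol placed 27399 probes and a synonym 8314 on 1 gene each, 191 matched several and 9377 none. The named kept probe with the highest mean stood for each gene, giving 9881 genes. The files held 0 columns of no sample.

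Means of the 4 groups were fitted with lmFit and eBayes to all 22 arrays without covariates. The contrast was ((WL + WW) - (LL + LW)) / 2, with Benjamini-Hochberg adjustment over all genes and calls at 0.05. Named genes are a subset, picked for length, of the 12 higher and 12 lower genes with the smallest p, the 3 smallest-p members of each list, the 8 smallest interaction p, and 26 chosen genes; unnamed gene models were skipped. The members, the 49 lists and these rules were chosen with earlier results of these data known. Lists have no test. The number of arrays limits precision, and differences of probes near background are compressed. Functions were tested on simulated data. Alternatives were other values, background correction, scaling, filters, probes, slide or replicate number as a block, array weights, an additive model and leaving out arrays. Replicate numbers were not taken to pair the mice. The counts for offspring diet, WL minus LW and values within slides were added after seeing the data.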

Additional observations from a re-analysis of the deposited data

Results flagged for a closer look

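For 77 genes and 12 list scores, the highest and the lowest mouse of each group was set against the others of its group, and 25 of 356 group values held a mouse far from the rest (7.02%, where chance flags about 1 in 20 groups). LL replicate 1, LW replicate 3, WL replicate 5 and WW replicate 6 each account for 3 of the 25. WW replicate 6 stood above its group in Fscn1 (6.40, the others up to 5.65), Cxcl1 (10.90, the others up to 9.78) and the inflammatory score (0.91, the others up to 0.25). WL replicate 5 was low in Ntrk2 (5.83, the others from 6.41), Pparg (6.66, from 8.34) and the CAR and PXR score (-0.71, from -0.073). LL replicate 1 was low in Gosr1 (4.68, from 5.52) and Acta2 (4.89, from 6.15) and high in Lcat (13.33, the others up to 12.42). LW replicate 3 was high in Col1a1 (6.13, up to 4.95), Fasn (5.03, up to 4.88) and the macrophage score (0.18, up to -0.22).

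The remaining flags were spread over other mice. LW replicate 5 was low in Zfp868 (4.76) and high in Ms4a1 (5.18), LW replicate 1 was low in Acta2 (4.69), and LW replicate 2 was low in the fatty acid synthesis score (-0.50). Among LL mice, replicate 3 was high in Ppic (8.58), replicate 2 in Exosc6 (5.76) and replicate 6 in Hacl1 (7.34). Among WL mice, replicate 2 was high in Wdr93 (6.53) and Gnb5 (4.84), replicate 4 high in Nipal1 (6.06), replicate 3 low in Dip2c (5.32) and replicate 1 low in the interferon score (-0.15). WW replicate 4 was low in C1qa (8.03). Both Acta2 flags are low values in offspring of L dams, and what sets these mice apart was not tested.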

How the results depend on the processing

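The count of genes called for dam diet was 0 in the reported fit, under 12 alternatives and with each of 22 mice left out. The number at an unadjusted p under 0.05 ran from 409 to 985 over the 12 alternatives and from 432 (without LW replicate 1) to 792 (without LW replicate 3) over the single mice, and the smallest limma adjusted p was 0.365 and 0.24 in these 2 sets. With the replicate block, which shares only a number between mice, 0 genes were called, 886 had an unadjusted p under 0.05; 16 of 31 same-number pairs of arrays correlated over 0.1, and 10 of 22 arrays correlated best with their own number. The count for the interaction was 0 under 11 alternatives (the additive model has no such term) and from 0 to 1 with 1 mouse left out: without WW replicate 1 Pigt was called (-1.60 ± 0.26, limma adjusted p = 0.0332), and the cause was not tested. Most of the 77 genes were picked for a small p in the reported fit, so stable signs are no support. The additive model, all kept probes, both detection filters and the replicate block left each difference as it was and could not change a sign. A further kept probe of Kdm6b, of Rap2a, of Acta2 and of Mup5 had the opposite sign (0.13, 0.020, -0.076 and -0.040). With the probe of highest mean, the 77 genes kept their sign in all 2589 values recomputed, but not their size. With the deposited normalized intensities 65 of 77 were over 1.5 times smaller (Vstm4 0.044, Col1a1 0.091, Ntrk2 0.15, Cyp2c54 -0.22), with normexp at offset 50 37 were, with array weights 4. Leaving out LL replicate 1 did so for Scd1 and Pparg and leaving out WW replicate 6 for H2-Aa. Of 408 recomputed list medians 406 moved by less than the SD of the list score between mice of a group. Except for B and plasma cells, that SD exceeded the size of the reported median of every recomputed list (0.30 against 0.29 for the matrix). A fall to 0 would thus have passed, and the count does not show that sizes held. The median of B and plasma cells moved to 0.052 with the deposited normalized intensities. With no detection filter it was 0.087, and 10 of 15 tested genes of that list were higher. Other counts also moved without the filter, where 49.4% of all genes were higher. Higher were then 31 of 35 matrix, 17 of 20 stellate, 26 of 32 macrophage, 11 of 11 MHC class II and 19 of 27 interferon-induced genes. For fatty acid oxidation the count was 7 of 28 and for heat shock 5 of 18. The deposited intensities also gave 0.071 for the matrix, 0.040 for stellate, 0.065 for macrophage, 0.061 for MHC class II, 0.037 for inflammatory and 0.026 for interferon-induced genes, and the cause was not tested. Fatty acid oxidation ran from -0.12 to 0.0013 over the alternatives, where 0.0013 came under scaling to one median, and male-biased genes from -0.041 to 0.098. With 1 mouse left out, fatty acid oxidation ran from -0.11 (without WL replicate 5) to -0.033 (without WL replicate 4), and fatty acid synthesis from 0.032 (without LW replicate 2) to 0.12 (without WL replicate 4). Scaling to one median moved the median of all genes to 0.061 and the share higher to 69.6%. Signal near background limits the genes detected in fewer than all mice, among them Gnb5, Col15a1, Col1a1, H2-Oa, Ms4a1, Fasn, Nr1d2, Nipal1, Zfp868 and Ifi47. Further such genes, with detections in offspring of W and of L dams, were Timp1 (9 and 6), Dnajb4 (4 and 9), H2-Aa (11 and 7) and Exosc6 (7 and 11). Gnb5, Col15a1, H2-Oa, Ms4a1, Fasn, Nr1d2, Nipal1 and Dnajb4 met the filter of 5 arrays through 1 dam diet, so their detection counts do not support a difference.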
